A study of Homo sapiens with 12 samples.

Results

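The response of A375 cells, an established human melanoma cell line with a BRAF mutation, to the withdrawal of glutamine (Gln) was examined across genes and pathways in 6 of the 12 RNA-seq libraries of the series. The 6 libraries were chosen by their labels: 3 libraries of cells kept without Gln (Gln-depleted, 0 mM) and 3 of cells kept with 2 mM Gln (CTRL medium), each for 24 h. Both groups were grown in DMEM with 10% fetal bovine serum, neither received a kinase inhibitor, and the cells were rinsed with PBS before the medium was changed. The other 6 libraries belong to a second experiment of the same design, in which A375 cells received 500 nM vemurafenib and 500 nM cobimetinib, inhibitors of BRAF and MEK (MAPKi), or the solvent DMSO for 24 h. A375 is 1 cell line, so replicates 1 to 3 are separate samples of the same line. Libraries of the same replicate number were compared as a pair. The p-values measure how far the difference between the groups varied from pair to pair. Replicate 1 of both groups is labelled as experimental batch 1 and replicates 2 and 3 as experimental batch 2, while all 6 share sequencing batch 1.

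Gln is the most abundant amino acid of blood plasma and culture medium and donates nitrogen to nucleotides, to asparagine and to hexosamines, and carbon to the tricarboxylic acid (TCA) cycle. When an amino acid is short, uncharged tRNAs activate the kinase GCN2, encoded by EIF2AK4, which phosphorylates the initiation factor eIF2. General translation then slows while the mRNA of the transcription factor ATF4 is translated more, and ATF4 switches on amino acid transporters, enzymes of amino acid synthesis and regulators such as CHOP, encoded by DDIT3. Amino acid shortage is also known to lower the activity of the kinase complex mTORC1, which controls the translation of ribosomal protein mRNAs and the synthesis of lipids and nucleotides.

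Each library was made from RNA of cells lysed with Triton X-100, which the labels describe as a cytoplasmic fraction, after removal of ribosomal RNA. The values are reads counted per gene, between 31292346 and 40071368 per Gln-depleted library and between 35246434 and 38045639 per CTRL medium library. Libraries of 1 group were further apart than sampling noise allows, with a chi-square of 39.5 to 192.8 per degree of freedom, and the pairs holding replicate 1 differed most. RN7SK, an abundant non-coding RNA, took 1.99% to 3.79% of the reads without Gln and 1.55% to 2.25% with it, and its part in the results was not tested. Of 8 melanocyte lineage markers 7 were tested, and their summed normalized counts went from 37478 to 44452 in CTRL medium and from 23855 to 26867 without Gln. SOX10, the transcription factor that defines this lineage, had a mean normalized count of 16482 over the 6 libraries. Of 7 keratinocyte markers 1 was tested, KRT10 (mean 2203), and their sum went from 1274 to 1752 in CTRL medium and from 1858 to 3803 without Gln, with KRT5, KRT1 and DSG3 at 0 reads in all 6 libraries. Of 7 fibroblast markers 4 were tested, with sums of 797 to 1273 in CTRL medium and 598 to 641 without Gln, LUM the highest (mean 320) and COL3A1 at 0. The sums of 6 leukocyte markers went from 1403 to 2114 and from 967 to 1444 (CD68 the highest, mean 1358, CD3E at 0), and those of 6 endothelial markers from 184 to 367 and from 173 to 317 (VWF the highest, PECAM1 and CDH5 at 0). The part of these markers in the results was not tested. Genes encoded by mitochondrial DNA were not analysed here.

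Without Gln, 3675 of 15698 genes tested were higher and 3244 were lower than in CTRL medium (quasi-likelihood test of edgeR, adjusted by Benjamini-Hochberg, with the replicate number as a block, adjusted p of at most 0.05), that is 23.4% and 20.7% of the genes tested. Rose and fell are used for these calls, and the percentages are the background for each gene list. The counts are relative to the RNA of each library, and in such bulk samples fewer cells in a state and less RNA per cell cannot be told apart. When the same fit was tested against a 1.5-fold change, 1369 genes (8.72%) were upregulated and 1065 (6.78%) downregulated beyond it. Within experimental batch 2 (replicates 2 and 3), 3833 genes were higher and 3656 lower, and experimental batch 1 holds 1 pair and allows no test of its own. Without replicate 2 the counts were lower, with 2059 genes higher and 1582 lower, and without replicate 3 they were 2730 and 2464. The fits without a pair tested the same 15698 genes. Numbers of list members given for such a fit are to be read beside its counts of all genes, and not beside the percentages above. The log2 ratios of the pairs, computed for each replicate number with 0.5 added to the normalized counts, had the same sign in 3 of 3 pairs for 99.7% of the genes called and for 68.4% of all genes tested. Across genes, which are not independent replicates, these ratios correlated with Pearson's r of 0.708 between replicates 1 and 2, 0.645 between 1 and 3 and 0.755 between 2 and 3. The groups did not overlap for 5066 of the 6919 genes called, so a lack of overlap is common among called genes. Its share among all genes tested was not computed. Where a lack of overlap is given for a gene below, it describes the counts and is no test besides the call. The median log2 fold change of all genes tested was 0.02. Called genes with a log2 fold change of 2 or more made up 2.31% of the genes tested, and those at -2 or less 1.44%. The plot of fold change against mean count shows the genes called over the whole range of expression.

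**Figure D1:**
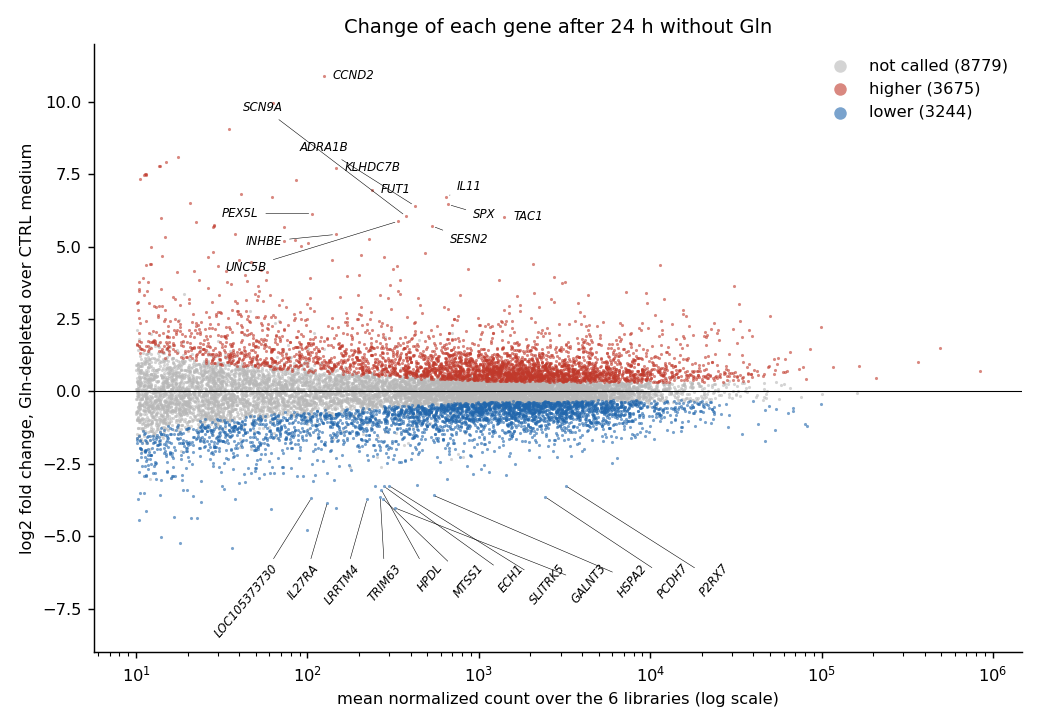
Log2 fold change of each of 15698 genes (Gln-depleted over CTRL medium, fit of 3 pairs) against its mean normalized count over the 6 libraries on a log axis, with the 3675 genes higher in red, the 3244 lower in blue and the others in grey. The 12 largest rises and 12 largest falls among genes averaging 100 normalized counts or more are named, from CCND2 at the top to GALNT3 at -4.02. The height of CCND2 is a fitted value that depends on the prior count, since it had 0 reads in the CTRL medium libraries.

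Genes that ATF4 and CHOP are known to activate rose together. Of 42 such genes 41 were tested, 39 rose and 2 fell, and the median log2 fold change was 2.29, with medians of 2.24, 2.22 and 2.29 in the 3 pairs. ATF4 itself had normalized counts of 11184, 8827 and 6922 in CTRL medium (replicates 1 to 3) and 37452, 33294 and 30943 without Gln, a log2 fold change of 1.94 (SE 0.13, adjusted p = 9.4e-05). DDIT3, which encodes CHOP, rose from 1084, 1355 and 660 to 4899, 8532 and 6798. For both genes every Gln-depleted library lay above every CTRL medium library. TRIB3, a pseudokinase that dampens ATF4 and AKT signalling and lies on chromosome 20 of GRCh38.p14 from 380760 to 397559, rose from 2544, 2616 and 1916 to 23565, 21022 and 20117, a log2 fold change of 3.20 (SE 0.13, adjusted p = 3.9e-05). CHAC1, which degrades glutathione, rose from 524, 391 and 222 to 4573, 3389 and 3514 (3.40 on the log2 scale, SE 0.20). DDIT4, an inhibitor of mTORC1, rose from 4330, 3441 and 3082 to 21051, 19971 and 17521, and ATF3, a stress-induced transcription factor, from 556, 461 and 233 to 2079, 3127 and 2573. The spread within a group was small beside these differences and the groups did not overlap. The 4 largest rises of the list were those of SESN2, ADM2, NUPR1 and ALDH1L2. ADM2, a secreted peptide of the calcitonin family, went from 43.3, 54.4 and 12.5 to 1050, 818 and 926, NUPR1, a stress-induced chromatin protein, from 154, 343 and 102 to 2774, 4127 and 5003, and ALDH1L2, a mitochondrial folate enzyme, from 92.5, 121 and 57.0 to 1767, 1667 and 1500. SESN2, a sensor that restrains mTORC1, had counts of 32.5, 17.2 and 4.46 and 1866, 1183 and 85.7, so its rise was seen in each pair while replicate 3 was low in both groups. The reads of SESN2 lie on rows for further copies of the gene, which were added up, so its level is uncertain. ASNS, which makes asparagine from Gln, had low counts of 20.7, 22.9 and 10.7 and 127, 128 and 142, and a read-through gene that overlaps it may take part of its reads. Its log2 fold change was 2.90 (SE 0.34, adjusted p = 0.00074). The members that fell were ERO1A, an oxidase of the endoplasmic reticulum (-0.80 on the log2 scale), and ALDH18A1, an enzyme of proline synthesis (-0.67). The plot of ATF4 pathway genes gives the 6 values of each gene. Calls lost when a pair was left out were those of ALDH18A1 without replicate 2 (adjusted p = 0.062).

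**Figure D2:**
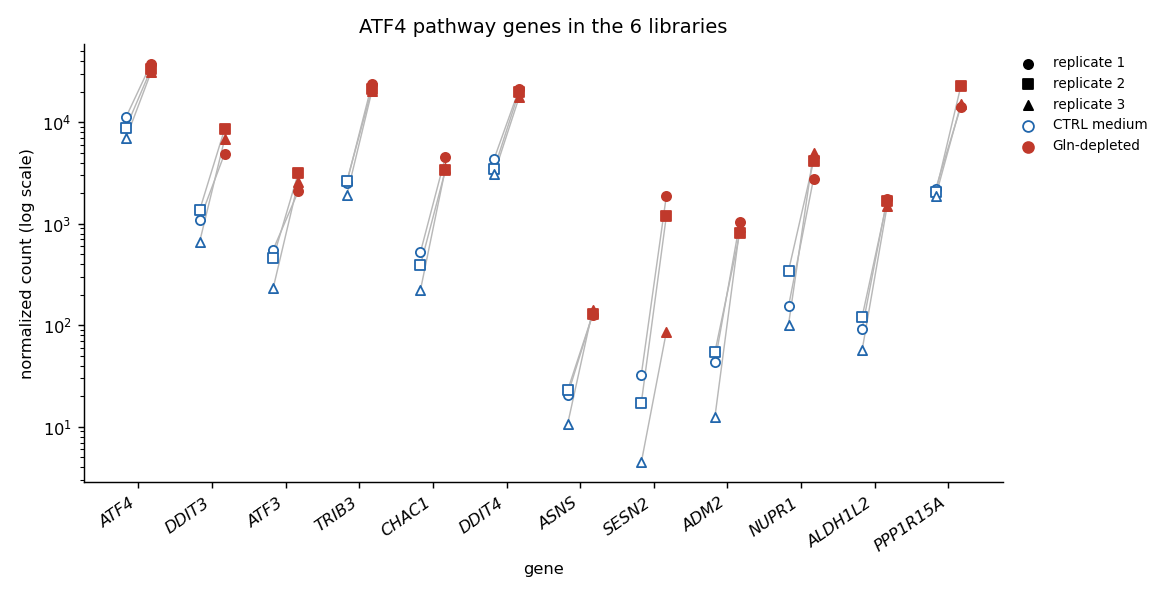
Normalized counts on a log axis of 12 genes of the ATF4 pathway in the 3 CTRL medium libraries (open blue symbols) and the 3 Gln-depleted libraries (filled red symbols), with grey lines joining libraries of the same replicate number. For each of the 12 genes the 3 red symbols lie above the 3 blue ones, and SESN2 replicate 3 is low in both groups.

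ATF4 binds DNA together with C/EBP proteins at composite elements, here searched on both strands as TGATGNAA in the 300 bases from 250 before to 50 after the first transcript start listed for each gene (RefSeq, GRCh38.p14). Of the tested members of the ATF4 and CHOP list, 32 had a promoter in the table and 4 of them held the element (12.5%), against 223 of 11847 tested genes (1.88%) and 3.67% of all 27305 promoters. It was found in 88 of 2795 promoters of genes that rose (3.15%) and in 39 of 2512 promoters of genes that fell (1.55%), which is a description of these windows and not evidence of binding. The elements of CHAC1, ASNS and ATF3 are shown because these genes are among the anchors of the list. The capitals mark the element, which starts at -209, -68 and -191 from that transcript start, and CHAC1 holds it on the opposite strand. The start used for ASNS lies inside the annotated gene, which reaches further upstream to 97928441.
CHAC1 (chr15:40953251-40953280, plus strand): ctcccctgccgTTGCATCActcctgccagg
ASNS (chr7:97872458-97872487, minus strand): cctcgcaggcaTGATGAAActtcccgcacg
ATF3 (chr1:212565205-212565234, plus strand): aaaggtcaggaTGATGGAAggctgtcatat

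Of 17 genes for eIF2, its kinases, phosphatase subunits and the exchange factor eIF2B, 6 rose and 1 fell. PPP1R15A (GADD34), which directs a phosphatase to eIF2 and so restores translation, rose from 2209, 2033 and 1876 to 14197, 22485 and 14934 (3.05 on the log2 scale, adjusted p = 6.1e-05). EIF2S2 and EIF2S3, subunits of eIF2, and IMPACT, an inhibitor of GCN2, rose less, with log2 fold changes of 0.88, 0.72 and 0.67. The mRNAs of GCN2 itself (EIF2AK4) and of its activator GCN1 did not pass the test, with log2 fold changes of -0.20 and -0.24 (adjusted p = 0.17 and 0.14). In the unfolded protein response of the endoplasmic reticulum, 15 of 32 tested genes rose and 8 (5 without replicate 2) fell. ERN1, the sensor IRE1, rose most, from 982, 837 and 538 to 7428, 10262 and 6129. XBP1, the transcription factor whose mRNA IRE1 splices, rose from 5659, 4098 and 3156 to 16608, 11715 and 10490, and the log2 fold changes of DNAJB9 and HERPUD1, factors of protein folding and degradation, were 2.24 and 1.64. HSPA5, the chaperone BiP, went from 43122, 30974 and 28206 to 82072, 72846 and 38217. It rose in each pair (0.87 on the log2 scale, adjusted p = 0.0042), but the groups overlapped.

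Amino acid transporters changed in both directions, with 14 of 33 rising and 10 falling. Among them SLC7A11, SLC7A5 and SLC3A2 are members of the ATF4 and CHOP list too. SLC7A11, which imports cystine in exchange for glutamate, rose from 2456, 8042 and 4350 to 40753, 71809 and 56372 (3.63 on the log2 scale, SE 0.19, adjusted p = 4.7e-05). SLC7A5, the transporter LAT1, which takes up large neutral amino acids in exchange for Gln, rose from 28597, 37230 and 38992 to 166470, 170330 and 151890, and its partner SLC3A2 from 9474, 8468 and 7796 to 42440, 31054 and 24710. SLC38A2 and SLC1A5, both importers of Gln, rose from 7400, 10323 and 6604 to 31297, 51309 and 28056 and from 14092, 10369 and 9838 to 44289, 37986 and 35169. These transporters did not overlap between groups. SLC7A8 (LAT2) and SLC16A10, an aromatic amino acid transporter, fell, with log2 fold changes of -3.25 and -2.36. SLC1A3, an importer of glutamate and aspartate, had counts of 164, 176 and 177 and 126, 186 and 179 (adjusted p = 0.74). SLC25A12, a mitochondrial aspartate carrier, passed the test (2.76 on the log2 scale), but its counts of 6.89, 1.91 and 4.46 and 158, 4.89 and 4.76 show that replicate 1 carries the difference. When a pair was left out, calls were lost for SLC25A12 without replicate 1 (adjusted p = 0.64).

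Of 22 enzymes of Gln, glutamate, aspartate and proline metabolism, 8 rose and 8 (2 without replicate 2) fell. ASNS, GPT2, PYCR1, PSAT1 and ALDH18A1 of this list are in the ATF4 and CHOP list too. The transaminases GPT2 and GOT1 rose with log2 fold changes of 2.29 and 2.13, and PYCR1, the last enzyme of proline synthesis, with 2.13. GLUL, glutamine synthetase, which makes Gln, had counts of 3625, 2461 and 1972 in CTRL medium and 4046, 2535 and 2191 without Gln. Its log2 fold change of 0.12 (SE 0.11, adjusted p = 0.43) lay within the spread between replicates, as did that of GLUD1, glutamate dehydrogenase (0.19, adjusted p = 0.19). GOT2, the mitochondrial partner of GOT1, fell (-0.67 on the log2 scale). The genes of serine synthesis rose together: PHGDH went from 4480, 2542 and 1978 to 19680, 9189 and 7782 and PSAT1 from 5225, 4661 and 4248 to 24769, 15505 and 16129. In the whole list of serine and folate one-carbon enzymes 10 of 25 rose and 7 fell. PHGDH, PSAT1, MTHFD2, SHMT2, CTH and other members of this list are in the ATF4 and CHOP list too. MTHFD2, a mitochondrial folate enzyme, rose from 10298, 12751 and 10757 to 47328, 52990 and 48419, and SHMT2, which precedes it, had a log2 fold change of 0.75. CTH and CBS, which make cysteine from homocysteine, had log2 fold changes of 2.97 and 2.08.

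Nucleotide synthesis, which uses the amide nitrogen of Gln, went the other way, with 2 of 33 genes rising and 14 (9 without replicate 2) falling and a median log2 fold change of -0.33. TYMS, thymidylate synthase, fell from 15319, 12763 and 14292 to 4604, 4909 and 6805, and TK1, HPRT1 and CTPS1 had log2 fold changes of -1.06, -0.97 and -0.88. CAD, which starts pyrimidine synthesis with the nitrogen of Gln, fell (-0.55 on the log2 scale), and its groups overlapped, with replicate 1 the highest of each. The Gln amidotransferases of purine synthesis did not pass the test: PPAT, PFAS and GMPS had log2 fold changes of -0.07, -0.33 and -0.30 and adjusted p of 0.75, 0.052 and 0.057. RRM2B, the ribonucleotide reductase subunit of resting cells, rose (1.13). Leaving out a pair ended the calls of CAD without replicate 2 (adjusted p = 0.058).

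Of 39 nutrient sensors upstream of mTORC1 12 (5 without replicate 2) rose and 8 (4 without replicate 2) fell, shares of 30.8% and 20.5% that are near those of all genes tested, and the median log2 fold change was 0.05. While SESN2 and DDIT4 rose, the related sestrins SESN1 and SESN3 fell, with log2 fold changes of -1.02 and -1.55. TXNIP, which limits glucose uptake and is switched on by the sensor MondoA, went from 5585, 2992 and 1969 to 16293, 11574 and 3738 and rose in each pair (1.48 on the log2 scale, adjusted p = 0.0011). Its relative ARRDC3, an arrestin-domain protein, rose from 324, 625 and 358 to 1680, 3932 and 1739, and ARRDC2 and ARRDC4 had log2 fold changes of 0.94 and 0.73. Of 8 genes tested in this list, 4 rose and 1 fell. The calls that ended with a pair left out were those of ARRDC4 without replicate 2 (adjusted p = 0.11).

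Genes of the translation machinery rose by small amounts and in large numbers. Of 83 cytosolic ribosomal protein genes tested, 60 (30 without replicate 2) rose and 2 fell, but only 4 were upregulated beyond 1.5-fold, since the median log2 fold change was 0.53 (0.39, 0.58 and 0.56 in the 3 pairs). RPS12 rose from 11442, 12457 and 15951 to 21341, 24804 and 29767 and RPL26 from 14043, 15128 and 13130 to 26020, 28524 and 25022, and neither overlapped between groups. RPS18 had the largest log2 fold change of those called (1.01), but its reads lie mostly on further copies of the gene and the groups overlapped, and RPS10, which fell (-1.04), shares reads with a read-through gene. EEF1A1, the elongation factor that brings aminoacyl-tRNAs to the ribosome, rose from 310360, 229510 and 195120 to 552550, 465830 and 435500, a difference larger than the spread within either group. Among 38 translation factors tested, 14 (9 without replicate 2) rose and 5 fell. EIF1, which selects the start codon, rose from 15833, 13654 and 14478 to 51957, 57397 and 53763. EIF4EBP1, the inhibitor of cap-dependent translation, and EIF4E3, a cap-binding protein, had log2 fold changes of 0.69 and 2.56, and EEF2K, the kinase of elongation factor 2, one of -1.71 with most reads on further copies. Calls lost when a pair was left out were those of RPS10 and RPS18 without replicate 2 (adjusted p from 0.11 to 0.15), and RPS10 without replicate 3 (adjusted p = 0.13).

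Many host genes of small nucleolar RNAs share with ribosomal protein genes a pyrimidine tract at the start of their RNA. The tract was not examined here. Of 27 genes tested in a list of host genes and other non-coding RNAs 18 rose and 0 fell, with a median log2 fold change of 0.79. ZFAS1 rose from 959, 1163 and 1268 to 4733, 8623 and 8058, SNHG1 from 1559, 1941 and 1597 to 7375, 10845 and 8693, SNHG12 from 226.4, 214 and 222 to 851, 1856 and 1121 and GAS5 from 1520, 1210 and 949 to 4550, 4888 and 4516. The groups did not overlap for any of these 4 genes, as for most genes called. The 76 mitochondrial ribosomal protein genes did not share the direction of the cytosolic ones, with 8 (2 without replicate 2 and 5 without replicate 3) rising, 20 (4 without replicate 2 and 10 without replicate 3) falling and a median log2 fold change of -0.12. MRPS10 and MRPS22 had the largest rises (1.01 and 1.01), and MRPS12 (-3.06) and MRPS28 (-1.04) fell, both with reads that further copies or a read-through gene make uncertain. Of 50 factors of ribosome assembly 5 (2 without replicate 2) rose, a smaller share than among all genes tested, and 9 (16 without replicate 1 and 3 without replicate 2 and 4 without replicate 3) fell, a share near that of all genes. NCL and BOP1, which act in rRNA maturation, fell (-0.71 and -1.41), and NOP53 and DDX21 rose (0.75 and 0.67). Small nucleolar RNAs themselves had a median log2 fold change of -0.66. Of 106 tested 3 rose (2.83%) and 24 fell (22.6%), the latter near the share of all genes tested. The part in this of the cytoplasmic fraction that the labels describe was not tested. Of 56 tRNA genes tested, 28 rose and 0 fell (median 1.05), in libraries not made for RNAs this short, where precursors and mature RNAs were not told apart. Of 1882 long non-coding RNAs tested 335 rose (17.8%) and 256 fell (13.6%). When a pair was left out, calls were lost for DDX21, MRPS12 and MRPS28 without replicate 2 (adjusted p from 0.051 to 0.18), and MRPS12 and MRPS28 without replicate 3 (adjusted p from 0.10 to 0.20).

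Cholesterol synthesis had the lowest median of the 43 lists. Of 30 genes tested 21 fell and 2 rose, and 19 were downregulated beyond 1.5-fold, with a median log2 fold change of -1.01 (-0.99, -1.08 and -1.04 in the 3 pairs). INSIG1, which retains the SREBP proteins in the endoplasmic reticulum and is itself a target of SREBP, lies on chromosome 7 of GRCh38.p14 from 155297878 to 155310235. It fell from 10136, 10386 and 9893 to 1920, 2044 and 1579, a log2 fold change of -2.46 (SE 0.12, adjusted p = 4.7e-05). HMGCS1, an early enzyme of the pathway, fell from 1931, 2640 and 2387 to 857, 815 and 619 and SQLE, which makes squalene epoxide, from 5206, 4304 and 3198 to 1880, 1305 and 879. Each of these genes was lower in all 3 Gln-depleted libraries than in any CTRL medium library. LSS and DHCR7, later enzymes of the pathway, had log2 fold changes of -2.01 and -1.83. NSDHL passed in the opposite direction (3.16) on few reads, with counts of 23.6, 8.58 and 4.46 and 181, 196 and 9.52. Searched on both strands as CACCCCAC, the core of the sterol regulatory element was present in 2 of 24 promoters of this list (8.33%). It was present in 2.63% of promoters of all genes tested, and in 6.25% of those of the ATF4 and CHOP list. The shares were alike for genes that rose (2.68%) and fell (2.71%). Neither of the 2 promoters belongs to a gene named in this paragraph.

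Fatty acid synthesis moved the same way by less, with 14 (5 without replicate 2) of 25 genes falling and 2 rising (median -0.39). SCD, the desaturase that makes oleate, fell from 59382, 48238 and 42876 to 21160, 17650 and 15925 without overlap. ACLY, FASN and PNPLA3 had log2 fold changes of -1.005, -0.57 and -1.54, and ACACA, with many reads on further copies, did not pass (-0.76, adjusted p = 0.062). MID1IP1, an activator of acetyl-CoA carboxylase, rose (1.41).

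In central carbon metabolism, 18 (7 without replicate 2) of 38 genes of the TCA cycle and pyruvate metabolism fell and 4 rose (median -0.32). MDH1, cytosolic malate dehydrogenase, fell from 17764, 12654 and 10583 to 9426, 5872 and 5640. IDH2 and OGDH, the mitochondrial enzymes before and after alpha-ketoglutarate, where carbon of Gln enters, fell with log2 fold changes of -0.96 and -0.55. IDH1, the cytosolic counterpart of IDH2, rose from 6005, 5007 and 3787 to 15183, 10186 and 9141. PDK4, an inhibitor of pyruvate dehydrogenase, fell (-2.77), and pyruvate carboxylase (PC) had a log2 fold change of 0.01 (SE 0.11, adjusted p = 0.96). PCK2, which is also in the ATF4 and CHOP list, rose (2.91). The nuclear genes of the respiratory chain had a median of -0.08, with 5 (3 without replicate 2 and 1 without replicate 3) of 78 rising and 16 (5 without replicate 2) falling. The share that fell (20.5%) was near the 20.7% of all genes tested, and the share that rose (6.41%) was below their 23.4%. ATP5MC3 and SDHA fell (-1.08 and -0.70), and COX7A2L and DMAC2L rose (1.31 and 0.71). In glycolysis and the pentose phosphate pathway 9 (3 without replicate 2 and 4 without replicate 3) of 32 genes rose and 13 fell. SLC16A3, a lactate exporter, had a log2 fold change of 1.39. TPI1 fell from 37002, 26348 and 29650 to 17387, 11827 and 14372, and ALDOC had a log2 fold change of -1.92. The first steps did not pass the test, with log2 fold changes of -0.24 for the glucose transporter SLC2A1 and 0.20 for hexokinase 2 (HK2), and adjusted p of 0.15 and 0.33. LDHA is not interpretable here, since 98.4% of its reads lie on further copies and replicate 1 of CTRL medium held 8541 normalized counts against 430 and 225 in the others. Leaving out a pair ended the calls of DMAC2L and OGDH without replicate 2 (adjusted p = 0.056), and DMAC2L without replicate 3 (adjusted p = 0.066).

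Genes of oxidative stress defence, many of them targets of NRF2, rose in 19 of 34 cases and fell in 5 (1 without replicate 2) (median 0.58). TXNRD1, thioredoxin reductase, rose from 12495, 15072 and 14210 to 98554, 85922 and 73211 (2.62 on the log2 scale, SE 0.15, adjusted p = 6.1e-05). OSGIN1, NQO1, HMOX1 and GCLM, the last a subunit of the enzyme that starts glutathione synthesis, had log2 fold changes of 3.10, 0.94, 1.03 and 0.99. SLC7A11 and CHAC1 belong to this list too. The antioxidant response element bound by NRF2 was searched as TGACNNNGC on both strands. It was present in 6 of 25 promoters of the list (24%) and in 15.1% of promoters of all genes tested, in 14.9% of those of genes that rose and 14.7% of those of genes that fell, and in 25% of those of the ATF4 and CHOP list. Of the 6 members with the element TXNRD1, GCLM and ME1 had log2 fold changes above 0, whereas PGD, CBR1 and GSTP1 had values of -0.61, -0.78 and -0.13. The elements of TXNRD1, GCLM and PGD are shown as examples from both sides, in capitals, at -99, -34 and -201 from the transcript start, and in GCLM and PGD they lie on the opposite strand. The calls that ended with a pair left out were those of CBR1 and PGD without replicate 2 (adjusted p from 0.053 to 0.14), and PGD without replicate 3 (adjusted p = 0.063).
TXNRD1 (chr12:104215669-104215699, plus strand): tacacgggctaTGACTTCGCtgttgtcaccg
GCLM (chr1:93909445-93909475, minus strand): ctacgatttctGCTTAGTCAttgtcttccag
PGD (chr1:10398852-10398882, plus strand): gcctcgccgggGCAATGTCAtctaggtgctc

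**Figure D3:**
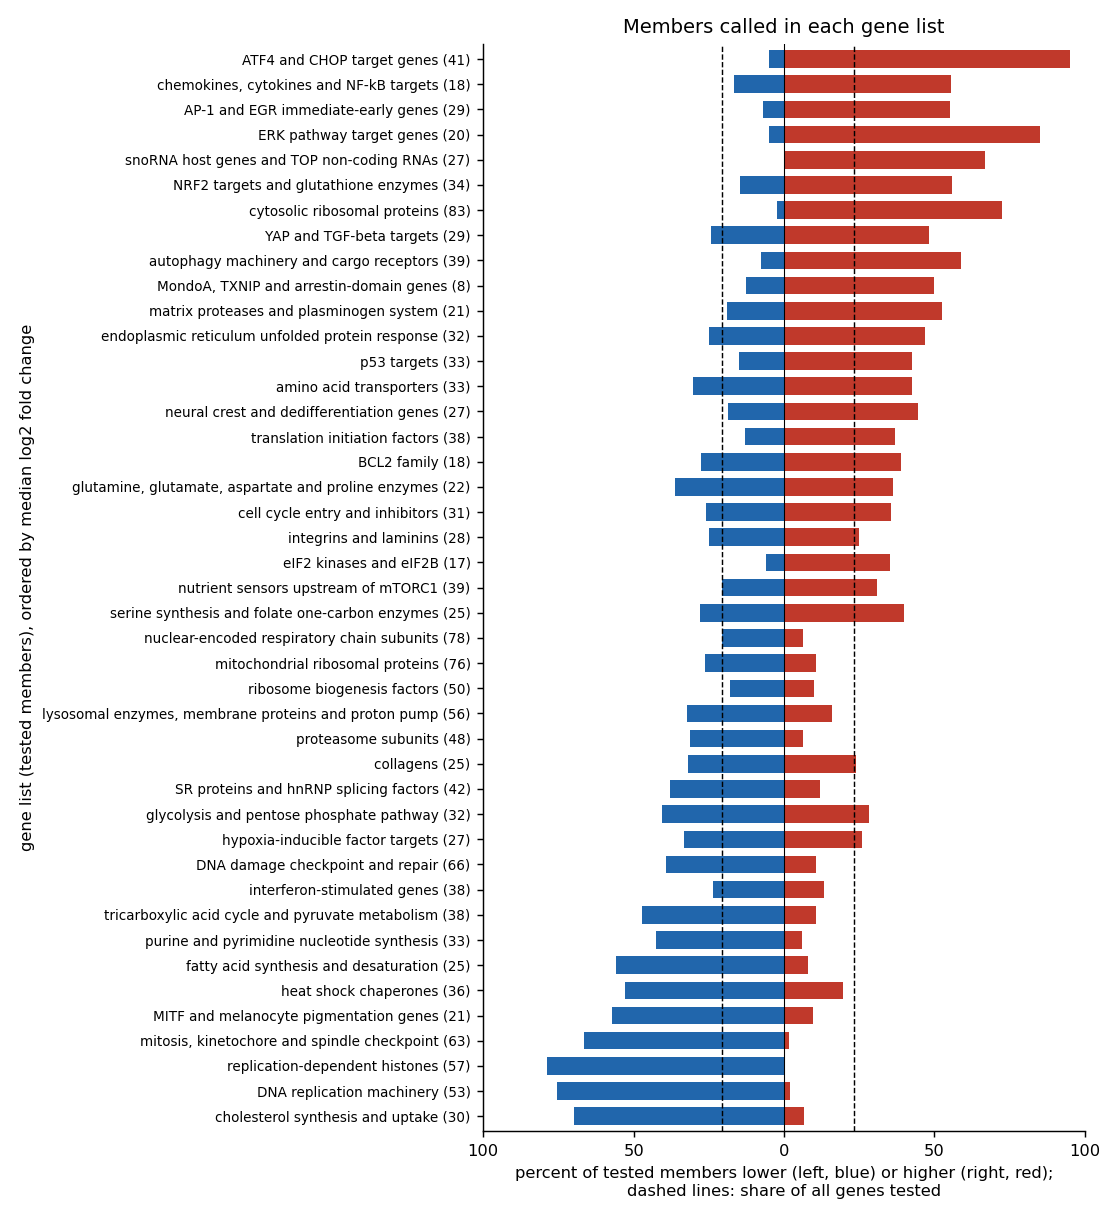
Percent of the tested members of each of 43 gene lists that were higher (red, to the right) or lower (blue, to the left) without Gln, with the number of tested members in brackets and the lists ordered by median log2 fold change. Dashed lines mark the shares among all 15698 genes, 23.4% higher and 20.7% lower. The ATF4 and CHOP list reaches furthest to the right and the histone list furthest to the left.

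Among targets of hypoxia-inducible factors 7 of 27 rose and 9 (5 without replicate 2) fell. The share that rose (25.9%) was near the 23.4% of all genes tested, and the share that fell (33.3%) was above their 20.7%. VEGFA, which drives the growth of blood vessels, rose from 1649, 1679 and 1549 to 17973, 19621 and 14481, a log2 fold change of 3.41 (SE 0.13, adjusted p = 3.2e-05). It lies on chromosome 6 of GRCh38.p14 from 43770211 to 43786487. ERRFI1, an inhibitor of the EGF receptor, and STC2, a secreted glycoprotein, rose as well (2.82 and 2.32), whereas ADM did not pass the test (0.54, adjusted p = 0.13). Of 33 targets of p53, 14 rose and 5 fell. Of these targets, GDF15, SESN2, TNFRSF10B and BBC3 count in the ATF4 and CHOP list too, as does STC2. GDF15, a secreted stress cytokine, rose from 9947, 11204 and 9660 to 62915, 62790 and 44128, and GADD45A, a sensor of DNA damage and stress, from 727, 791 and 802 to 4113, 9823 and 6510. CDKN1A, the cell cycle inhibitor p21, had a log2 fold change of 1.51, the death receptor TNFRSF10B one of 2.05, and MDM2, the ligase of p53, one of 0.56. In the BCL2 family both killers and protectors rose, in 7 of 18 genes, and 5 (2 without replicate 2) fell. PMAIP1 (NOXA), which neutralizes MCL1, rose from 400, 751 and 405 to 3291, 6470 and 4506, while MCL1 itself, which protects cells, rose from 6720, 6897 and 7567 to 22979, 29066 and 16276. BBC3 (PUMA) and HRK, both promoters of cell death, had log2 fold changes of 1.44 and 1.95, and BCL2A1, a protector under the control of MITF in melanocytes, fell (-2.19).

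Genes of DNA replication and division fell. Of 53 genes of the replication machinery 40 fell and 1 rose (median -0.80). MCM2 and MCM4, subunits of the replicative helicase, went from 17534, 10155 and 9280 to 8854, 3475 and 2880 and from 19071, 14087 and 13617 to 9043, 3877 and 3444, and PCNA, the sliding clamp, from 7706, 6502 and 6628 to 5170, 2450 and 2515. In each of these genes replicate 1 without Gln was the highest of its group, and still below every CTRL medium library. TICRR, GINS4 and POLE2, which act at origins and forks, had log2 fold changes of -1.70, -1.65 and -1.63. The replication-dependent histones fell in 45 (29 without replicate 2) of 57 cases and rose in 0 (median -0.59). H4C9 fell from 5294, 4324 and 4626 to 1403, 1254 and 1824 and H2BC14 from 2419, 2829 and 4894 to 944, 1080 and 1811, and H4C14 and H3C14 had log2 fold changes of -1.42 and -1.41. Histone genes are near-identical copies of each other and their mRNAs lack poly(A) tails, so the split of reads between members is uncertain. Of 63 genes of mitosis 42 (27 without replicate 2) fell and 1 rose (median -0.58). MKI67, the proliferation marker, fell from 7116, 5845 and 5365 to 3144, 2865 and 2570, and KIF20A, MYBL2, AURKB and NCAPH had log2 fold changes of -1.65, -1.46, -1.42 and -1.42. CDK1, the kinase that starts mitosis, did not pass (-0.34, adjusted p = 0.053). Calls lost when a pair was left out were those of H3C14 without replicate 1 (adjusted p = 0.15), and H4C14 without replicate 2 (adjusted p = 0.12), and H4C14 without replicate 3 (adjusted p = 0.15).

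DNA damage checkpoint and repair genes fell in 26 (16 without replicate 2) of 66 cases and rose in 7 (3 without replicate 2) (median -0.27). PARP1, which senses DNA breaks, fell from 11227, 7395 and 7268 to 4914, 2256 and 2284, and RAD54L, UHRF1 and MSH6 had log2 fold changes of -1.63, -1.21 and -1.12. BRCA1 had counts of 2064, 4523 and 3867 and 2611, 4308 and 3714, a log2 fold change of 0.07 (SE 0.13, adjusted p = 0.69). Among regulators of cell cycle entry 11 (6 without replicate 2 and 7 without replicate 3) of 31 rose and 8 fell, and both D-type cyclins named by the rule rose. CCND1, cyclin D1, went from 14873, 16241 and 17474 to 74499, 66040 and 47526 (1.93 on the log2 scale, SE 0.17). CDK2, which drives entry into S phase, fell from 9810, 10340 and 10476 to 3158, 3329 and 3484, and the factor E2F1 did not pass the test (-0.38, adjusted p = 0.076).

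Of 36 heat shock chaperones tested 19 fell and 7 rose (median -0.54). HSPA8, the constitutive HSP70, fell from 79322, 64103 and 62881 to 46682, 13869 and 14384, less in replicate 1 than in replicates 2 and 3. HSPB1 (HSP27) and HSPA2 had log2 fold changes of -2.04 and -3.59. The heat-inducible pair HSPA1A and HSPA1B fell too (-2.32 and -2.16), but these near-identical genes have 99.4% and 98.8% of their reads on further copies. Among 48 proteasome subunits, most of which did not pass the test, 15 (5 without replicate 2 and 7 without replicate 3) fell and 3 rose, and PSMD1, PSMB6, PSMD13 and PSMD2 had log2 fold changes of -1.04, -0.94, -0.88 and -0.82. Autophagy genes rose in 23 (11 without replicate 2) of 39 cases and fell in 3 (median 0.50). MAP1LC3B (LC3B), which coats the autophagosome membrane, rose from 4310, 4446 and 4173 to 22561, 29753 and 15307, and its relatives GABARAPL1 and MAP1LC3B2 had log2 fold changes of 1.64 and 2.28. The reads of MAP1LC3B and MAP1LC3B2, which are near-identical, cannot be fully told apart. SQSTM1, the cargo receptor p62, had counts of 6511, 1831 and 472 and 11393, 1935 and 396, which differed more between replicates than between groups (adjusted p = 0.38). ATG16L1 and TOLLIP passed the test (3.34 and 1.93) with groups that overlapped, and all reads of ATG16L1 lie on further copies of the gene. In the lysosome list 9 (5 without replicate 2) of 56 genes rose and 18 (9 without replicate 2) fell: NAGLU, GLA, CTSC and CTSS, which are lysosomal enzymes, had log2 fold changes of -1.37, -1.16, -0.98 and -2.02, TFEB one of -0.84, and LAMP1 one of 0.01 (SE 0.11, adjusted p = 0.96). When a pair was left out, calls were lost for TFEB and TOLLIP without replicate 2 (adjusted p from 0.076 to 0.17), and TFEB and TOLLIP without replicate 3 (adjusted p from 0.053 to 0.13).

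Targets of the ERK pathway, which mutant BRAF keeps active in these cells, rose in 17 (10 without replicate 2) of 20 cases and fell in 1, with a median log2 fold change of 0.81. DUSP6, a phosphatase that limits ERK, rose from 7542, 4773 and 6246 to 15765, 16305 and 9874, and SPRY4, another feedback inhibitor, from 21994, 15500 and 20654 to 40913, 36483 and 30147. A read-through gene overlaps DUSP6. ETV4 and ETV5, transcription factors of the pathway, rose by 0.54 and 0.61 on the log2 scale, and FOSL1, EGR1 and MYEOV by 2.35, 2.33 and 2.35. SPRY1, a relative of SPRY4, was the member that fell, from 1902, 1261 and 1210 to 367, 164 and 223. Immediate-early genes, most of them of the AP-1 and EGR families, rose in 16 of 29 cases and fell in 2 (median 0.90). KLF4 rose from 411, 406 and 426 to 4869, 7980 and 4924, JUN from 369, 257 and 296 to 753, 1285 and 815 and EGR1 from 2308, 742 and 1084 to 3680, 9360 and 6664, and EGR2 and EGR4 had log2 fold changes of 2.78 and 4.81, the latter against 6 reads in the 3 CTRL medium libraries. FOS did not share this direction, with counts of 1524, 637 and 622 and 697, 713 and 536 (adjusted p = 0.22). Leaving out a pair ended the calls of ETV4 and ETV5 without replicate 2 (adjusted p from 0.059 to 0.070).

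Secreted signals and factors of invasion rose in part. Of 18 chemokine, cytokine and NF-kB target genes tested 10 rose and 3 fell, and IL6 had too few reads to be tested. IL24 rose from 6080, 6606 and 3580 to 22860, 47047 and 14927, PTGS2 (COX-2) from 39.4, 53.4 and 51.7 to 201, 426 and 246.3, TSLP from 80.7, 74.4 and 57.9 to 300, 786 and 534 and CXCL8 (IL-8) from 25.6, 50.5 and 52.6 to 90.6, 206 and 90.4. In these 4 genes replicate 2 was the highest library without Gln. TNFAIP3, an inhibitor of NF-kB, fell (-0.98). Among YAP and TGF-beta targets 14 of 29 rose and 7 (3 without replicate 2 and 4 without replicate 3) fell. INHBA, BMP2 and ANKRD1 had log2 fold changes of 3.34, 3.23 and 3.15. The YAP targets CCN1 and CCN2 did not pass the test (0.19 and 0.78, adjusted p = 0.70 and 0.071), ID1, a target of BMP signalling, fell (-0.93), and ID3 lies on further copies and did not pass (adjusted p = 0.76). Of 21 proteases and inhibitors of the matrix 11 rose and 4 fell. SERPINE2 rose from 324830, 247560 and 197370 to 833010, 825290 and 522750, MMP2 and MMP1 had log2 fold changes of 1.85 and 2.66, SERPINB2 one of 2.55 on few reads, and PLAT one of 0.45 (adjusted p = 0.052). Of 25 collagens 6 (3 without replicate 2) rose and 8 (4 without replicate 2) fell (24% and 32%), and of 28 integrins and laminins 7 (3 without replicate 2) rose and 7 fell (25% and 25%), against 23.4% and 20.7% of all genes tested. ITGB1, the common beta chain, rose (0.90), ITGB8, ITGA10 and LAMC3 fell (-1.21, -0.99 and -1.57), as did COL4A1, COL1A1, COL8A1 and COL14A1 (-0.40, -1.39, -1.95 and -2.84), and COL5A3 and COL4A3 rose (1.75 and 1.55). The calls that ended with a pair left out were those of COL8A1 without replicate 1 (adjusted p = 0.051), and COL1A1, COL4A1, COL4A3, CXCL8, ID1, SERPINB2 and TNFAIP3 without replicate 2 (adjusted p from 0.052 to 0.26), and COL1A1, ITGB8 and TNFAIP3 without replicate 3 (adjusted p from 0.058 to 0.20).

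**Figure D4:**
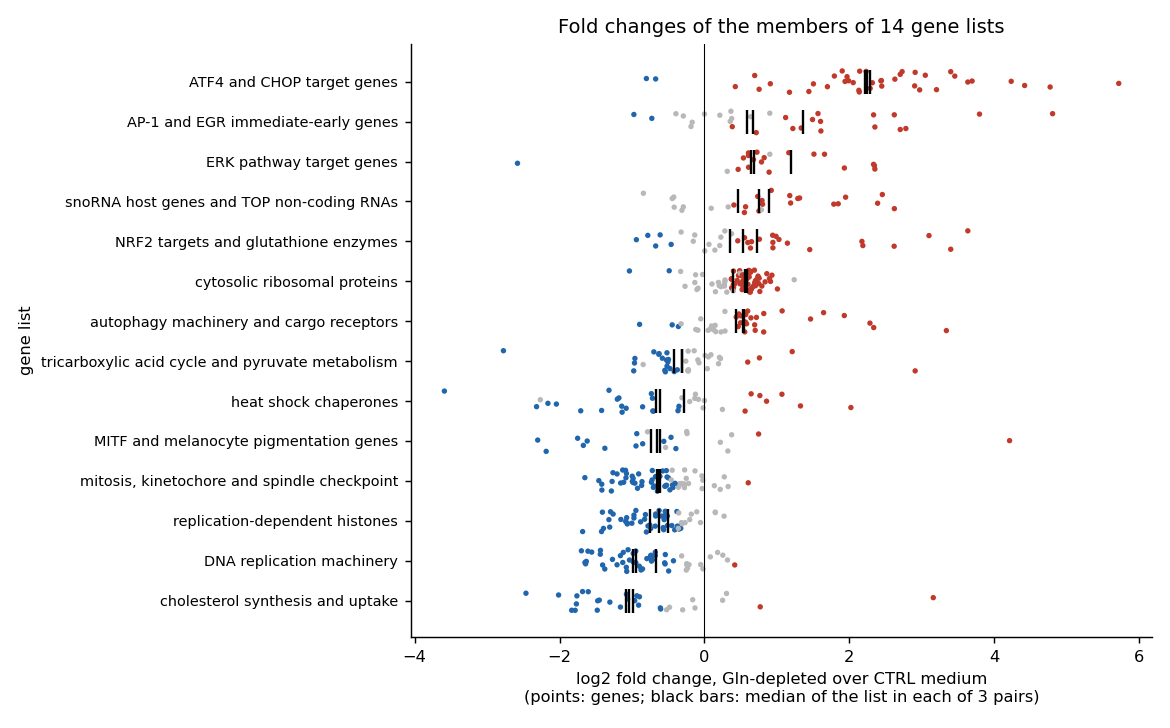
Log2 fold change of each tested member (points, red where higher, blue where lower, grey where not called) of 14 gene lists, with black bars for the median log2 ratio of the list in each of the 3 pairs. The 3 medians lie on the same side of 0 in each of the 14 lists, at 2.22 or above for the ATF4 and CHOP list and at -0.99 or below for the cholesterol list. The 14 lists are a selection, and medians of some lists not drawn changed sign between pairs. They were 0.13, -0.05 and -0.39 for ribosome assembly, -0.10, 0.08 and 0.28 for integrins and laminins, and 0.20, -0.06 and 0.18 for the eIF2 list.

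Of 21 genes of MITF and pigmentation tested 12 fell and 2 rose (median -0.56). MITF, the transcription factor of the lineage, lies on chromosome 3 of GRCh38.p14 from 69739464 to 69968332 and fell from 6964, 12811 and 12328 to 2523, 1616 and 2260, a log2 fold change of -2.30 (SE 0.27, adjusted p = 0.00072). SOX10, which acts upstream of MITF, had counts of 20694, 15031 and 17616 and 18947, 14653 and 11952 and did not pass the test (adjusted p = 0.18). CAPN3 fell (-1.75) and DCT, an enzyme of melanin synthesis, fell in each pair from 1784, 7920 and 6928 to 1051, 2871 and 4546. PMEL and TYR did not pass (-0.79 and -0.54, adjusted p = 0.051 and 0.26), MLANA had too few reads to be tested, and OCA2 rose (4.21). Of 27 neural crest and dedifferentiation genes 12 rose, 5 (3 without replicate 2) fell and 10 did not pass the test. Log2 fold changes in the list went from -1.35 to 2.35, and the members named next are all from those that rose. AXL, a receptor kinase of MITF-low melanoma cells, rose from 854, 1000 and 989 to 1716, 5277 and 2902, NGFR, a neural crest receptor, from 243, 157 and 260 to 693, 567 and 444, and NT5E and SOX9 had log2 fold changes of 1.46 and 0.46. Interferon-stimulated genes fell in 9 of 38 cases and rose in 5 (2 without replicate 2), shares of 23.7% and 13.2%. The share that fell was near the 20.7% of all genes tested, and the share that rose was below their 23.4%. IFIT1, GBP2, OAS1 and ISG15 had log2 fold changes of -2.80, -1.64, -1.44 and -0.79, and DDX60 one of 1.42. Of 42 splicing factors 16 (10 without replicate 2) fell and 5 (3 without replicate 2) rose. SRSF2, HNRNPA3 and HNRNPD fell (-1.57, -1.32 and -1.25), the kinase CLK1 rose (0.89), and HNRNPL rose (2.02) with its reads on further copies. Calls lost when a pair was left out were those of SOX9 without replicate 1 (adjusted p = 0.054), and CLK1, ISG15 and SOX9 without replicate 2 (adjusted p from 0.063 to 0.18).

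The 12 largest rises were of genes with few reads in CTRL medium. CCND2, cyclin D2, had 0 reads in all 3 CTRL medium libraries and normalized counts of 469, 231 and 48.8 without Gln. It was at least 88.1-fold higher, taking a floor of 3 counts in each CTRL medium library, and replicate 3 was the lowest. IL11, a cytokine of the IL-6 family, rose from 11.8, 12.4 and 8.02 to 960, 2337 and 540, and TAC1, the precursor of substance P, from 51.2, 47.7 and 27.6 to 2578, 3751 and 1981. Both were higher in every Gln-depleted library, by log2 fold changes of 6.73 (SE 0.31) and 6.03 (SE 0.19). The adrenergic receptor ADRA1B rose from 5.91, 11.4 and 11.6 to 568, 1121 and 818, the peptide hormone gene SPX from 3.94, 21.9 and 17.8 to 715, 2203 and 985 and the sodium channel SCN9A from 5.91, 19.1 and 8.91 to 818, 804 and 594. SESN2, described with the ATF4 genes, is among the 12, and KLHDC7B, FUT1, PEX5L, UNC5B and INHBE completed them with log2 fold changes of 7.72, 6.95, 6.14, 5.88 and 5.42, where KLHDC7B, FUT1 and PEX5L had 4, 12 and 9 reads in the CTRL medium libraries. FUT1 is a fucosyltransferase, UNC5B a netrin receptor and INHBE an activin subunit.

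Among the 12 largest falls, P2RX7, a channel opened by extracellular ATP, and PCDH7, a protocadherin, started from the highest levels. P2RX7 fell from 7181, 6084 and 4332 to 676, 555 and 569 and PCDH7 from 3444, 4691 and 5453 to 452, 246.2 and 399, with log2 fold changes of -3.27 (SE 0.15) and -3.65 (SE 0.25). GALNT3, which starts O-glycans on proteins, fell most, from 318, 804 and 715 to 25.3, 25.4 and 63.1 (-4.02 on the log2 scale). TRIM63, a ubiquitin ligase, MTSS1, which shapes membranes, LRRTM4 and SLITRK5, synaptic adhesion proteins, and HPDL, a mitochondrial dioxygenase, had log2 fold changes of -3.65, -3.72, -3.73, -3.26 and -3.40. The non-coding RNA LOC105373730 fell from 129, 229 and 226.3 to 6.32, 17.6 and 23.8. IL27RA (-3.84) and ECH1 (-3.28) have nearly all reads on further copies, and ECH1 overlapped between groups with counts of 1134, 411 and 35.6 and 48.4, 30.3 and 22.6.

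The changes were set against those of MAPKi over DMSO in the same cell line by a contrast over the 12 libraries, which do not share controls. Of 15866 genes, 8586 (54.1%) changed differently in both experiments, 4545 with the higher log2 fold change without Gln and 4041 with the lower. The Gln depletion libraries belong to sequencing batch 1 and the others to sequencing batch 2, so the experiment and the batch cannot be told apart. Among 6057 genes called in both experiments, 3777 had the same sign and 2280 opposite signs. For the tested members of the ATF4 and CHOP list, the median log2 fold change was 2.29 without Gln and -0.61 with MAPKi, and 32 members were higher in the Gln contrast. CHAC1, for example, had a log2 fold change of -2.93 with MAPKi (adjusted p of the difference 4.0e-06), MTHFD2 one of -2.65 (1.5e-07) and SLC7A11 one of -2.14 (1.3e-06). SLC7A5, SLC3A2 and ATF3 rose in both, with log2 fold changes of 2.52, 1.86 and 2.37 with MAPKi, and their difference did not pass the test (adjusted p = 0.093, 1.0 and 0.54). The ERK targets separated furthest, with a median of -3.57 with MAPKi, and 20 of 20 members were higher in the Gln contrast. TAC1 went from a rise without Gln to a log2 fold change of -5.74 with MAPKi.

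Replication genes fell in both experiments, but more with MAPKi, with medians of -0.80 without Gln and -1.74 with MAPKi, and 43 of 53 members differed in that direction while 0 differed in the other. The histones had medians of -0.59 and -2.21. Ribosomal protein genes were on opposite sides of 0, with medians of 0.53 and -0.45, and 72 of 83 were higher in the Gln contrast. The TCA cycle list, the respiratory chain and the lysosome list were higher with MAPKi, with medians of 0.58, 0.70 and 0.82 against -0.32, -0.08 and -0.12 without Gln. In these lists 29 of 38, 64 of 78 and 49 of 56 members differed in that direction. MITF rose with MAPKi (0.79 on the log2 scale, adjusted p of the difference 0.00011) and the median of its list was 0.79. Cholesterol genes fell in both, and 18 of 30 were lower in the Gln contrast, among them INSIG1 with a log2 fold change of -0.56 with MAPKi. Autophagy genes had medians of 0.50 and 0.51, and the same number of members differed in each direction (12). The plot of list medians places the lists of both experiments together.

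**Figure D5:**
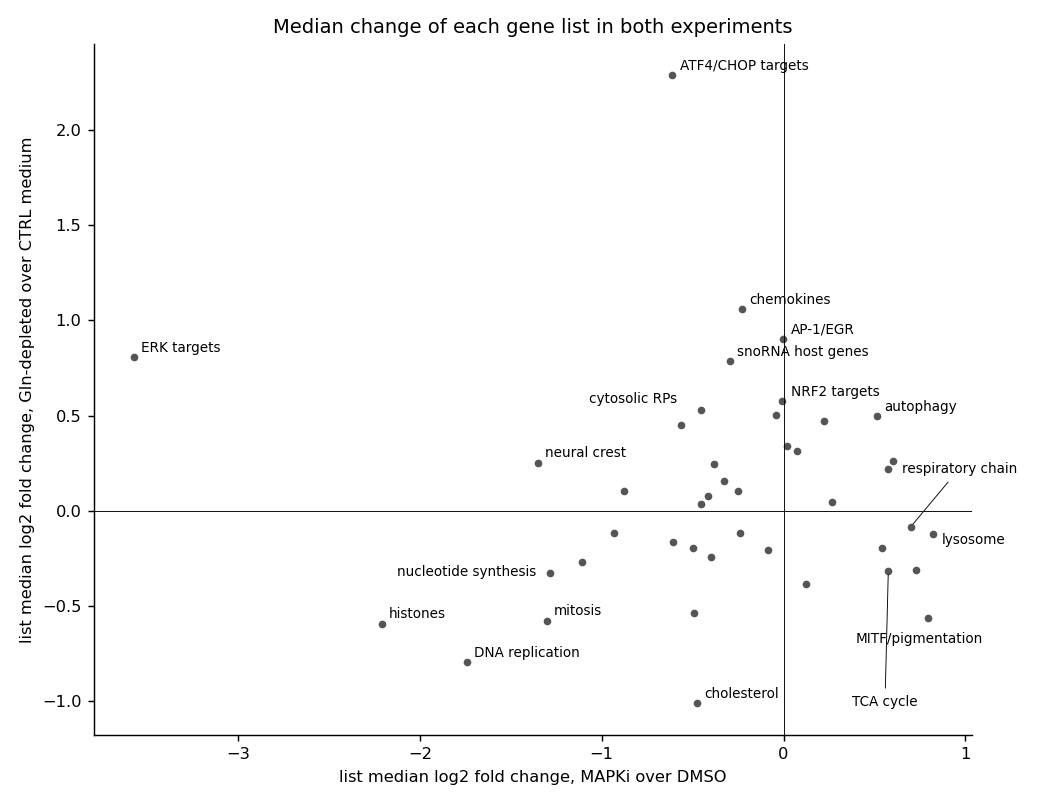
Median log2 fold change of the tested members of each of 43 gene lists without Gln (vertical axis) and with MAPKi (horizontal axis), 1 point per list, with 18 lists named. The ATF4 and CHOP list stands at 2.29 and -0.61 and the ERK list at 0.81 and -3.57, while replication, mitosis and histone lists lie below 0 on both axes.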

How the data were processed

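RNA-seq was performed on 3 Gln-depleted and 3 CTRL medium libraries of A375 cells, part of a series of 12 libraries. The authors trimmed the reads with fastp 0.20.1, aligned them with HISAT2 2.2.1 to GRCh38.p13 and counted those on exons with HTSeq 0.13.5, and deposited raw counts per gene, from 31292346 to 40071368 per library used here. The labels describe a cytoplasmic fraction and the paper's RNA-seq methods total RNA. Whether the counting used strand was not given in the sources used here.

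The table holds 44659 rows named by symbol. Of these, 5084 were further copies of 2712 genes, on alternate sequences of the assembly, and their counts were added to their gene, since the reads of some genes lie mostly on a copy. This left 39575 genes, of which 36488 matched RefSeq by symbol, 527 by an older symbol and 2560 not at all. All columns of values were used.

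Genes that averaged 10 or more normalized counts across the 6 libraries entered a quasi-likelihood fit (edgeR 4.0.16, R 4.3.3) scaled by TMM, with factors from 0.924 to 1.08, and with the replicate number as a block, and were tested against no change and against a 1.5-fold change, with calls made where the adjusted p (Benjamini-Hochberg) did not exceed 0.05. The pairing was taken from the numbers of the libraries in the labels. Deviations from the group means correlated at 0.522, 0.368 and 0.412 between libraries of the same number and at -0.396 to 0.0700 between others. Deviations within a group of 3 sum to 0, so these values depend on each other and are no test of the pairing. Replicate 1 is also the only library of experimental batch 1 in each group. The difference from MAPKi was a contrast over 12 libraries with a block of 6 pairs. The procedure was tested on counts simulated from this fit, with 200 genes changed. It called 16 of 67 genes changed 1.5-fold, 52 of 67 changed 2-fold and 65 of 66 changed 4-fold. It also called 13 unchanged genes. A gene that did not pass the test may thus still have changed. At this depth, precision is set by the spread of the replicates and less by counting.

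The 43 gene lists and the genes named were chosen with earlier results of these data known. Some genes belong to more than 1 list and count in each. The genes named are the 12 largest rises and falls among genes called, averaging 100 normalized counts or more and with 1 direction in 3 of 3 pairs, and from each list preset anchors and the 4 members called with the largest changes. Some genes that this rule names are not reported here. ERO1A, ALDH18A1, ME1, PGD, CBR1 and GSTP1 were added after their values were seen. Normalized counts are given for replicates 1 to 3 in this order. Coordinates and promoters are from RefSeq (GRCh38.p14), with a promoter for 11847 tested genes. Alternatives were no block, DESeq2's size factors, DESeq2 1.42.0, other filters, protein-coding genes only, all 12 libraries, a GC-content correction (5 degrees of freedom, 14262 genes with a value), each pair left out, an adjusted p of 0.01 and, added after the data were seen, copies of a gene kept apart. Python 3.11.15 with pandas 2.3.3, numpy 2.4.6, scipy 1.17.1 and matplotlib 3.10.9 made tables and figures.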

Additional observations from a re-analysis of the deposited data

How the results depend on the processing

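The counts of genes called depended most on the pairing. Without the replicate block 1464 genes were higher and 1158 lower, and 543 were upregulated and 292 downregulated beyond 1.5-fold, and 58 of the genes named with a fold change missed the threshold of the test in that fit. When each pair was left out in turn, from 2059 to 3833 genes were higher, from 1582 to 3656 lower, from 781 to 1522 upregulated and from 515 to 1360 downregulated, with the lowest counts without replicate 2. These fits hold 2 pairs. At an adjusted p of 0.01, 2228 genes were higher, 1679 lower, 724 upregulated and 454 downregulated. Of the counts and medians of the gene lists, 69 moved past the set limits without the block and 60 did not. At an adjusted p of 0.01, 41 moved and 88 did not, and without replicate 2, 50 moved and 79 did not. The numbers of list members given above for other fits refer to pairs left out only. DESeq2 called 868 upregulated and 600 downregulated genes, and the fit of all 12 libraries 1612 downregulated ones. The other filters, DESeq2's size factors, the replicate block with a GC-content correction and copies of a gene kept apart moved no count of all genes by over 1.5 times. From 7537 to 9351 genes differed from MAPKi with a pair left out. Of 232 such genes called, 169 stayed called with the same sign in each of the 13 alternatives that could test them, and none changed sign with a call. Genes with few reads, with reads on further copies or with a read-through neighbour are the least certain. The cause of the dependence on replicate 2 was not tested.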
